A study of Mus musculus with 4 samples.

Results

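Shisa2, Cntnap2 and Pkdcc were chosen for their high levels in the high-Nes cells of the lateral ganglionic eminence (LGE) of the mouse embryo, and they are 3 of the 43346 genes counted in these libraries. No numerical cutoff was attached to that choice, so their LGE levels in high-Nes cells are given as a description and carry no test. Single cells were profiled by droplet sequencing of transcript 3′ ends at E12.5 (embryonic day) from the cortex (CTX), the LGE, the medial (MGE) and the caudal (CGE) ganglionic eminence. The embryos were wild-type C57BL/6, and neither an added transgene nor a treatment distinguished the 4 regions. Each region was 1 library of tissue pooled over embryos, described in the labels, though not in the study's methods for wild-type tissue, as sorted for live DRAQ5+/DAPI- cells, so no difference between regions has a replicate behind it. A cell was called high-Nes or high-Dcx when ln(1 + UMIs per 10000) of that gene exceeded 1.5, where a UMI (unique molecular identifier) stands for 1 captured transcript.

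The ganglionic eminences are the ventral germinal zones of the telencephalon, and the LGE gives rise to striatal projection neurons and olfactory bulb interneurons. Nes encodes an intermediate filament protein of ventricular zone progenitors, and Dcx a microtubule-binding protein of newborn neurons in the subventricular and mantle zones (SVZ and MZ). Shisa2 is a membrane protein of the endoplasmic reticulum that holds back immature Frizzled and fibroblast growth factor (FGF) receptors and so lowers Wnt and FGF signaling. Cntnap2 (Caspr2) is an adhesion protein of the neurexin superfamily that gathers potassium channels along myelinated axons together with the contactin Cntn2. Pkdcc, also called vertebrate lonesome kinase, is a secretory pathway tyrosine kinase that phosphorylates extracellular proteins.

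The 3 genes lie on different chromosomes of the GRCm38 build, each on the plus strand. Shisa2 (ENSMUSG00000044461.5) covers chr14:59625308-59631660 with 2 exons in its longest coding transcript. Pkdcc (ENSMUSG00000024247.10) covers chr17:83215292-83225070 with 7 exons. Cntnap2 (ENSMUSG00000039419.12) covers chr6:45059357-47304213, a span of 2244857 bases with 24 exons in its longest coding transcript. GENCODE places 28 other genes within the Cntnap2 span, 24 of them on the same strand, and none of them overlaps a Cntnap2 exon.

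The 250 bases before the first RefSeq start of each gene are shown because the 3 genes were grouped by a shared regional level, and a reader can see how different their starts are. Capitals mark matches to the TATA box letters TATAA and the GC box letters GGGCGG on either strand, where overlapping matches are joined into one run. The windows are chr14:59625031-59625280 for Shisa2, chr6:45059811-45060060 for Cntnap2 and chr17:83215033-83215282 for Pkdcc, all on the plus strand of GRCm38.p6.
Shisa2: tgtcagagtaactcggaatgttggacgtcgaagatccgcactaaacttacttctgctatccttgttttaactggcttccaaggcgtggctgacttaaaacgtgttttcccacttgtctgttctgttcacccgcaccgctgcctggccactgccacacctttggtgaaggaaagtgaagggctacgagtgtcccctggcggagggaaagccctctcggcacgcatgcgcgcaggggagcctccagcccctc
Cntnap2: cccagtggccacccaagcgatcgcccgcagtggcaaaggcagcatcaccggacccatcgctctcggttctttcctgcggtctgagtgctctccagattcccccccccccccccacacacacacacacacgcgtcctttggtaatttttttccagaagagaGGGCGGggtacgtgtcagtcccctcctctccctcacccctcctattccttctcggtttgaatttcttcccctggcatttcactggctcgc
Pkdcc: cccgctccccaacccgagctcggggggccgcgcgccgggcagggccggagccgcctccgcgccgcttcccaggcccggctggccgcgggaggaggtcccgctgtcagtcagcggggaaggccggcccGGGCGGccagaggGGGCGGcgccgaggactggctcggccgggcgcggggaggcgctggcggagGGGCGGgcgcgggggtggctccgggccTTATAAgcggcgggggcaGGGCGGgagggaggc
The Pkdcc window held 83.2% G and C, the Cntnap2 window 59.6% and the Shisa2 window 56%, against a median of 52.4% over all promoter windows of this length. Pkdcc had 4 GC boxes and a TATA box match, Cntnap2 had 1 GC box, and Shisa2 had neither. Of 32817 promoter windows, 32.7% held a GC box and 22.8% a TATA box match. The letters TAATTA (homeodomain core), CTTTGA (TCF/LEF core) and CAGCTG (E-box of proneural factors) were in none of the 3 windows, and in 4.85%, 13.8% and 13.0% of all windows. RefSeq gives Cntnap2 another start near its 3′ end, at base 47244396, and counts of 3′ ends cannot tell the products of the 2 starts apart.

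After filtering, 3537 CTX, 4664 LGE, 4724 MGE and 3194 CGE cells remained, with medians of 6943.5 to 8232 UMIs. LGE contributed 655 high-Nes cells, beside 895 of CTX, 542 of MGE and 180 of CGE, and the same order of libraries held 2117, 803, 2200 and 2285 high-Dcx cells. Between 16 and 74 cells per library passed both gates. Of all barcodes, 66 were shared between libraries, 33 of them among the kept cells. Summed over 7 radial glia markers, high-Nes cells held 4040 to 10985 CPM (UMIs of a gene per 1e6 UMIs of the class) and high-Dcx cells 681 to 1474 CPM. All 5 LGE markers were detected in the LGE library in both classes. Their sum in high-Nes cells was 1292 CPM in LGE against 1019 in CTX, 672 in CGE and 612 in MGE, so it set LGE little apart from CTX. In high-Dcx cells it was 3613 CPM in LGE against 940 in CGE, 430 in CTX and 259 in MGE. Among the lists of non-neural cells, microglia and macrophage markers ran from 0.366 CPM in LGE to 157 CPM in CGE high-Nes cells. Leaving out the cells called non-neural changed no LGE ratio below by more than its interval.

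In high-Nes cells Shisa2 was a gene of the LGE and the cortex, and its level was low in the other eminences. Its level was 139.7 CPM (95% interval 129.96 to 149.96) in LGE and 120.2 CPM (113 to 128) in CTX. In MGE it stood at 11.8 CPM (9.02 to 15.1) and in CGE, on 4 UMIs, at 2.49 CPM (0.679 to 6.38). LGE and CTX thus formed a high pair whose intervals did not overlap those of MGE and CGE. The LGE level was 11.8 times that of MGE (9.12 to 15.6) and 56.0 times that of CGE (21.8 to 206), the latter resting on 4 UMIs and at 22.8 (7.71 to 111) after thinning to 3000 UMIs per cell, yet only 1.16 times that of CTX (1.05 to 1.28). The name LGE-enriched therefore held for Shisa2 among the eminences and not against the cortex. Cortical markers summed to 3.66 CPM in LGE high-Nes cells against 309.6 CPM in those of CTX. All intervals are exact and cover counting error only, not differences between embryos or dissections.

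Cntnap2 was the member whose high-Nes level was most restricted to the LGE. It reached 50.8 CPM (45.0 to 57.2) there, followed by 12.9 CPM (10.52 to 15.8) in CTX. MGE, at 5.61 CPM on 29 UMIs, and CGE, at 4.36 CPM on 7 UMIs, had overlapping intervals at the bottom of the order. The LGE level was 3.93 times that of CTX (3.11 to 4.99), 9.07 times that of MGE (6.17 to 13.8) and 11.7 times that of CGE (5.58 to 29.3).

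Pkdcc was present in the high-Nes cells of all 4 regions, with the LGE on top. The levels were 162.9 CPM (152 to 174) in LGE, 108.8 CPM (100.0 to 118) in MGE, 63.0 CPM (57.5 to 68.9) in CTX and 54.2 CPM (43.4 to 66.9) in CGE. The intervals of CTX and CGE overlapped, and each of the other neighbors in the order was separated. LGE exceeded MGE by a ratio of only 1.50 (1.35 to 1.67), CTX by 2.58 (2.31 to 2.89) and CGE by 3.01 (2.41 to 3.79).

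**Figure D1:**
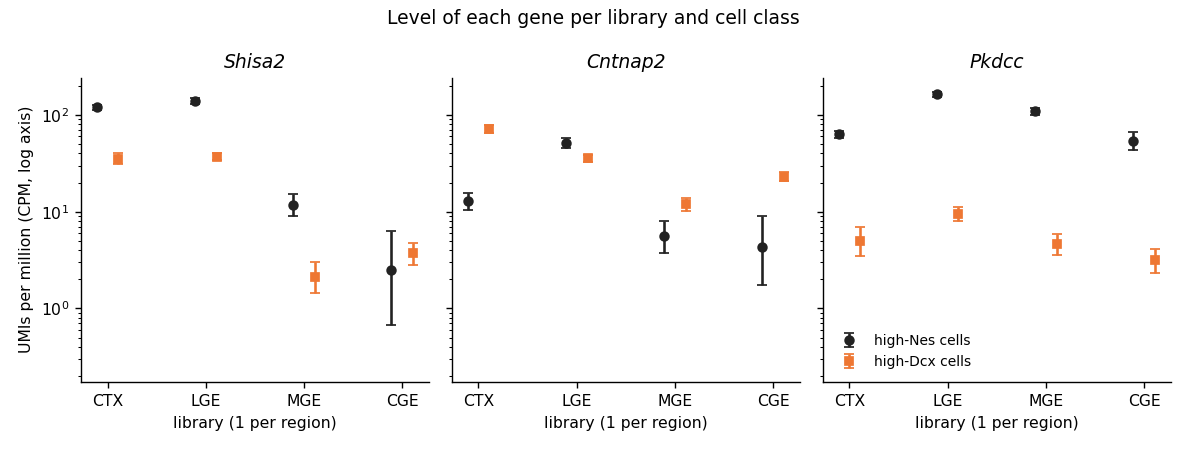
Level of Shisa2, Cntnap2 and Pkdcc in CPM on a log axis in the 4 libraries, with circles for high-Nes and squares for high-Dcx cells and bars for exact 95% Poisson intervals. Shisa2 stands at 139.7 CPM in LGE and 120.2 CPM in CTX high-Nes cells, Cntnap2 has its highest high-Dcx level in CTX at 71.4 CPM, and Pkdcc is at or below 9.55 CPM in every high-Dcx class.

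Among 6648 genes with at least 20 CPM in LGE high-Nes cells, Shisa2 ranked 1 and Cntnap2 ranked 2 by the smaller of the LGE ratios over MGE and CGE, and Pkdcc ranked 111. At least 2-fold over both was reached by 2 of the 3 members, against 0.737% of those genes. With CTX added to the comparison the ranks were 324 for Shisa2, 2 for Cntnap2 and 67 for Pkdcc, and 1 member passed 2-fold over all 3 regions against 0.436% of genes. These ranks restate the measure on which the genes were picked.

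Depth differed between regions, with a median of 8153 UMIs in LGE and 9759 UMIs in MGE high-Nes cells, so each cell was also thinned to 3000 UMIs and shallower cells (5 to 29 per library) were left out. Shisa2 was then seen in 28.0% of 632 LGE cells and 28.8% of 866 CTX cells, against 2.98% of 537 MGE and 1.71% of 175 CGE cells. Cntnap2 was seen in 10.6% of LGE cells, 3.46% of CTX, 2.05% of MGE and 1.71% of CGE cells. Pkdcc was seen in 32.3% of LGE cells, 20.5% of MGE, 16% of CGE and 15.7% of CTX cells. Thinning kept the LGE at or near the top for each gene. Without thinning the LGE shares were 57.3% for Shisa2, 22.4% for Cntnap2 and 50.8% for Pkdcc. As a reference for stray RNA, thinned Cntnap2 was found in 1 of 412 cycling SVZ cells of the same library (0.243%), defined below, also at 3000 UMIs per cell. That count lies under the floor of 3 counts used here. Thinned Shisa2 was found in 0.371% of 808 postmitotic MZ cells of MGE, and thinned Pkdcc in 0.338% of 1185 MZ cells of CGE. These are other libraries, so they set no limit on stray RNA in LGE. Each of the reference classes was among the lowest for its gene, so none is a measured background. In 543 thinned MZ cells of LGE the shares were 2.03% for Shisa2 and 1.66% for Pkdcc.

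Transcripts of the 3 genes were spread unevenly over LGE high-Nes cells at their own depth. Shisa2 had no UMI in 280 of 655 cells and at least 3 in 99, and the 66 cells with the most held 37.2% of its UMIs. Pkdcc had none in 322 cells and at least 3 in 130, with 45.3% of its UMIs in its top 66 cells. Cntnap2 had none in 508 cells and at least 3 in 38, and its top 66 cells held 69.8% of its UMIs. Cntnap2 also had the fewest UMIs in these cells, 278 against 764 for Shisa2 and 891 for Pkdcc, so these counts of cells move with its lower level.

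The 3 genes followed the level of Nes differently. In LGE, Pkdcc rose stepwise from 14.7 CPM in cells with no Nes UMI to 38.2, 70.4, 140.2 and 231 CPM as Nes increased through the bins shown in the plot over the range of Nes. Shisa2 climbed less steeply over the same bins, from 36.04 to 76.3, 94.6, 134.4 and 156 CPM. Cntnap2 was lowest in the middle, at 50.5, 30.5, 23.0, 47.0 and 62.4 CPM. Cells just outside the Nes gate (1.0 to 1.5) therefore held less of each gene than those just inside it (1.5 to 2.0). In CTX the Cntnap2 level fell from 54.9 CPM without Nes to 10.9 CPM above 2.0. MGE had 10.52 CPM in cells without Nes and lower levels in every bin with Nes, each on 12 to 17 UMIs. These were 1.75 CPM (0.930 to 2.99), 2.39 (1.23 to 4.17), 5.63 (3.28 to 9.01) and 5.58 (2.88 to 9.74), so most neighbors overlapped. CGE fell from 23.1 CPM without Nes to 3.03 and 6.52 CPM in the highest bins, on 3 and 4 UMIs.

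**Figure D2:**
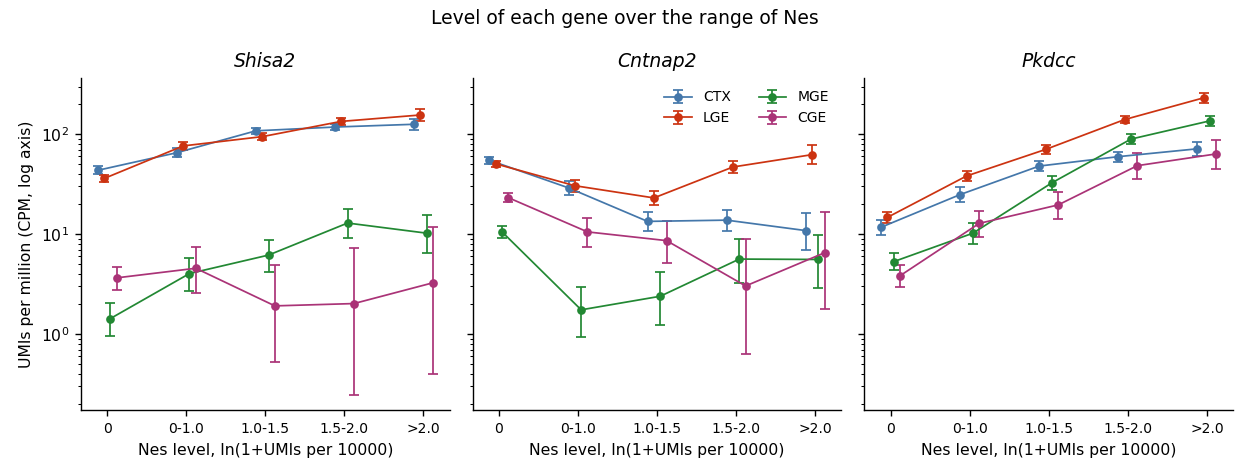
Level of each gene in CPM on a log axis in 5 bins of the cell's own Nes level, ln(1 + UMIs per 10000), with one line per library and bars for exact 95% Poisson intervals. Pkdcc rises with Nes in all 4 libraries, and Cntnap2 in LGE has its lowest level, 23.0 CPM, in the bin from 1.0 to 1.5.

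In high-Dcx cells the order of the regions changed for Cntnap2. Its level was 71.4 CPM (65.1 to 78.0) in CTX, 35.5 CPM (32.6 to 38.7) in LGE, 23.1 CPM (20.8 to 25.6) in CGE and 12.0 CPM (10.3 to 13.9) in MGE, with no overlap between neighbors. LGE stood at 0.498 times the CTX level (0.439 to 0.565), so in high-Dcx cells this gene was highest in the cortex. Shisa2 kept its pair of high regions, at 37.0 CPM (33.9 to 40.2) in LGE and 35.3 CPM (31.0 to 40.1) in CTX, a ratio of 1.05 (0.898 to 1.22). It fell to 3.72 CPM in CGE and 2.12 CPM in MGE. The high-Dcx classes held cycling cells in different shares, and the Shisa2 ratios among postmitotic cells alone are given below. Pkdcc was low throughout, at 9.55 CPM (8.04 to 11.3) in LGE, 5.02 CPM in CTX, 4.58 CPM in MGE and 3.15 CPM in CGE. The intervals of CTX and MGE, and of MGE and CGE, overlapped for Pkdcc. Of the members, 1 (Shisa2) was at least 2-fold higher in LGE than in both MGE and CGE, against 1.65% of 6471 genes, and 0 were so against all 3 regions, beside 1.41% of genes. Pkdcc lay under the 20 CPM needed to enter that comparison. Cortical markers summed to 37.9 CPM in LGE and 77.4 CPM in CGE high-Dcx cells against 2807 CPM in those of CTX, and their part in these levels was not tested.

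High-Dcx cells of the LGE were divided further with the gates used for the study: cycling SVZ cells (414 cells, in which Mki67 and Ccnd2 exceeded 0.5 while Rbfox3 and Mapt did not reach it) and postmitotic MZ cells (559 cells with Ccnd1, Ccnd2, Hes5, Nes and Mki67 all below 0.5). Shisa2 was at 77.4 CPM (68.8 to 86.9) in the SVZ cells and 7.14 CPM (4.58 to 10.6) in the MZ cells. Cntnap2 ran the other way, with 5 UMIs and 1.34 CPM (0.435 to 3.13) in SVZ cells and 53.9 CPM (46.3 to 62.3) in MZ cells. Pkdcc was at 15.004 CPM (11.3 to 19.5) and 7.14 CPM (4.58 to 10.6). Over the high-Nes, SVZ and MZ cells of the LGE, Cntnap2 was thus at 50.8, 1.34 and 53.9 CPM, whereas Shisa2 and Pkdcc were lower in each class than in the one before. These are gated classes, and a course within 1 lineage was not tested. The high-Nes level is the one on which the members were picked, and the SVZ gate itself selects on Mki67 and Mapt. CTX MZ cells had more of both Cntnap2, at 94.2 CPM, and Shisa2, at 19.4 CPM, than those of LGE.

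The members were compared between high-Nes and high-Dcx cells without the LGE, on whose high-Nes cells they were picked. The study had already named Pkdcc a gene of the whole ventricular zone, and Shisa2 and Cntnap2 genes enriched in that of the LGE. Its data included wild-type cells of these regions, so the comparison is not independent of what was known of the members. UMIs were summed over high-Nes only and high-Dcx only cells of CTX, MGE and CGE, and the classes were compared with the library as a block. Pkdcc was at 64.1, 111 and 56.4 CPM in the high-Nes sums of CTX, MGE and CGE and at 4.98, 4.22 and 3.04 CPM in the high-Dcx sums. It was higher in high-Nes cells in 3 of 3 libraries, by a log2 fold change of 4.14 (SE 0.249, adjusted p = 0.00151 by edgeR's quasi-likelihood test with Benjamini-Hochberg adjustment). Cntnap2 was at 12.0, 5.39 and 3.32 CPM in the high-Nes sums and 71.6, 12.0 and 23.1 CPM in the high-Dcx sums. Its log2 fold change was -2.20 (SE 0.371, edgeR adjusted p = 0.0104), with high-Dcx cells higher in 3 of 3 libraries. Shisa2 was at 120.8, 12.0 and 2.66 CPM against 34.1, 2.08 and 3.74 CPM. It did not pass the threshold (log2 fold change 1.55, SE 0.494, edgeR adjusted p = 0.0578), being higher in high-Nes cells in 2 of 3 libraries. Over all 13114 genes tested, 22.2% were called higher in high-Nes and 21.6% higher in high-Dcx cells, so 1 and 1 of 3 members stood close to what the whole table held. Each region enters as 1 library, and the p-values measure the spread of the class difference across regions. Without CGE the calls changed, since Shisa2 then passed (adjusted p = 0.0318) and Cntnap2 did not (adjusted p = 0.0632, both edgeR), and without the block Cntnap2 also missed the threshold (adjusted p = 0.0548, edgeR).

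The LGE departed from the other libraries for 1 of the members. Pkdcc was 18.3 times higher in high-Nes only than in high-Dcx only cells of LGE (15.3 to 22.1), within the span of 12.9 to 26.3 times in the other regions. Shisa2 was 4.09 times higher in LGE (3.65 to 4.58), 3.54 times in CTX and 5.77 times in MGE, and its CGE ratio of 0.710 (0.187 to 1.92) rested on 4 UMIs in high-Nes cells. Cntnap2 was 1.51 times higher in the high-Nes only cells of LGE (1.30 to 1.75), at 55.0 against 36.5 CPM. Its ratio lay below 1 elsewhere, at 0.168 in CTX (0.132 to 0.210), 0.450 in MGE (0.288 to 0.678) and 0.144 in CGE (0.0463 to 0.338). With 1 library per region this difference could not be tested. The LGE high-Nes level in this ratio is also the level on which Cntnap2 was picked, so the choice itself favors a high ratio there.

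**Figure D3:**
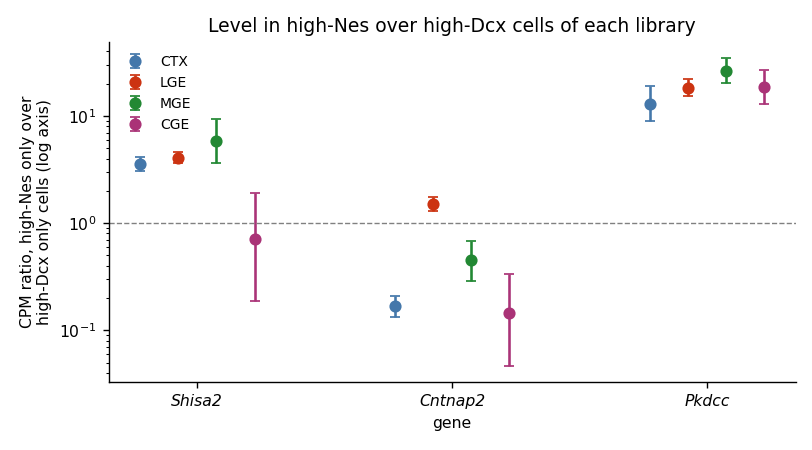
Ratio of the level in high-Nes only cells to that in high-Dcx only cells, on a log axis, for each gene and library, with exact 95% intervals of counting error and a dashed line at 1. Cntnap2 lies at 1.51 in LGE and between 0.144 and 0.450 in the other libraries, while Pkdcc exceeds 12 in each of them.

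Cells of the LGE that held 1 member tended to hold the others, more so for pairs with Pkdcc. In the 632 thinned high-Nes cells, Shisa2 and Pkdcc met in 76 cells where the product of their shares gave 57.1. Cntnap2 and Pkdcc met in 40 cells against 21.6, and Shisa2 and Cntnap2 in 25 cells against 18.8. All 3 were seen in 17 cells, or 2.69% (1.57 to 4.27), where the product of the shares was 0.958%, and at least 1 was seen in 51.3%. Cells with a Pkdcc UMI had 83.3 CPM of Cntnap2 against 24.9 CPM in cells without, a ratio of 3.34 (2.11 to 5.38). For Shisa2 the same split gave 188 against 102.8 CPM, a ratio of 1.83 (1.41 to 2.37). Pkdcc was 2.14 times higher in cells with Cntnap2 (1.59 to 2.84) and 1.36 times higher in cells with Shisa2 (1.07 to 1.73). Between Shisa2 and Cntnap2 the excess was smaller: Shisa2 was 1.58 times higher in cells with Cntnap2 (1.09 to 2.23), and Cntnap2 1.38 times higher in cells with Shisa2 (0.848 to 2.21). With the gate at 2.0 the excess of Pkdcc in cells with Shisa2 was gone, at a ratio of 0.816 (0.505 to 1.28). These are cells of 1 library and not replicates, so the intervals describe counting error within it.

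The same pairs behaved differently in high-Dcx cells. This class includes cycling cells, since 448 of the 2075 thinned LGE cells had a Mki67 UMI, and their part in the pairs was not tested. In 2075 thinned high-Dcx cells of LGE, Shisa2 and Cntnap2 met in 5 cells where the product of the shares gave 13.2, and Cntnap2 was at 10.99 CPM in cells with Shisa2 against 31.9 CPM in cells without (ratio 0.345, 0.125 to 0.765). At their own depth the 2 genes met in 23 cells against 56.0. Shisa2 and Pkdcc met in 8 thinned cells against 4.74, and Cntnap2 and Pkdcc in 4 against 3.93. In the 1939 thinned LGE cells past neither gate, Shisa2 and Pkdcc met in 77 cells against 38.5, whereas Shisa2 and Cntnap2 met in 21 against 30.2. For Shisa2 and Cntnap2, the high-Dcx share with both, 0.241% (0.0783 to 0.561), lay below the product of 0.638%. In high-Nes cells the interval of that share, 2.58 to 5.78%, included the product of 2.97%. Past neither gate, the interval of 0.672 to 1.65% included the product of 1.56%, though Cntnap2 was at 0.571 times (0.357 to 0.874) in cells with Shisa2. In CTX high-Nes cells Shisa2 and Pkdcc met in 49 of 866 cells against 39.1, and Cntnap2 and Pkdcc in 2 against 4.71.

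**Figure D4:**
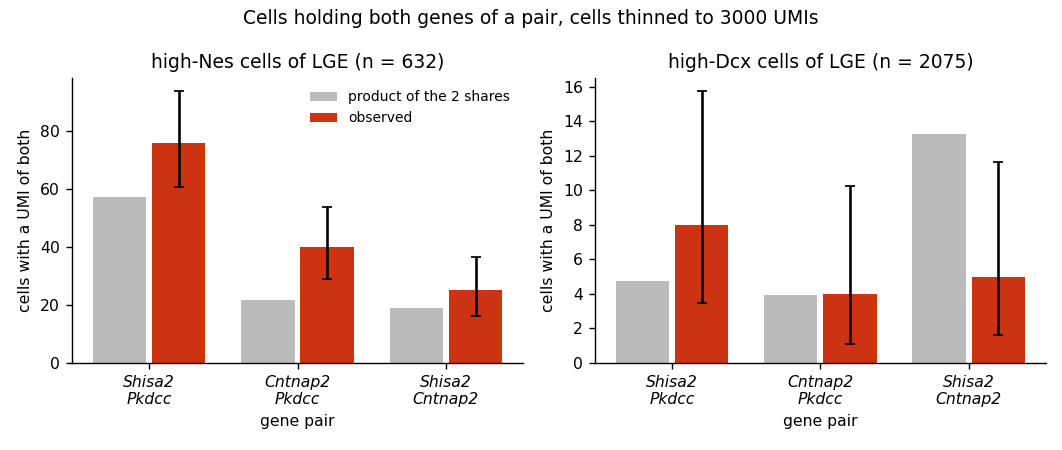
Number of LGE cells, thinned to 3000 UMIs, with a UMI of both genes of each pair (red, with exact 95% binomial intervals) beside the number that the product of the single shares gives (grey), for high-Nes cells on the left and high-Dcx cells on the right. Cntnap2 and Pkdcc meet in 40 high-Nes cells against 21.6, and Shisa2 and Cntnap2 in 5 high-Dcx cells against 13.2.

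When the same 632 LGE high-Nes cells were split by other genes, Cntnap2 and Pkdcc were higher with Fabp7 and lower with Gadd45g. In the ventral telencephalon the study found Fabp7 confined to the dorsal and ventral borders of the eminences. A split by Fabp7 therefore does not separate progenitor stage from position. Cells with Fabp7, a fatty acid binding protein of radial glia, had 66.0 CPM of Cntnap2 against 5.72 CPM in cells without it, a ratio of 11.5 (4.33 to 43.4). Pkdcc was 3.39 times higher in cells with Fabp7 (2.46 to 4.76) and Shisa2 1.57 times higher (1.18 to 2.11). The opposite held for Gadd45g, a stress and cell cycle exit gene of differentiating progenitors. Cells with Gadd45g held 5.68 CPM of Cntnap2 against 58.5 CPM (ratio 0.0972, 0.0196 to 0.294), and Pkdcc was at 0.191 times (0.116 to 0.297). Shisa2 was at 0.725 times in cells with Gadd45g (0.526 to 0.985), a smaller difference.

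Restricted to the 322 cells with a Fabp7 and no Gadd45g UMI, a subset chosen after the values above were seen, the ratios between members ranged from 1.12 to 1.74. Only the 2 ratios over cells split by Pkdcc, 1.74 (1.07 to 2.87) for Cntnap2 and 1.74 (1.24 to 2.46) for Shisa2, then had intervals above 1.

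Among regional factors, Pax6, a dorsal marker at the border with the cortex, went with Pkdcc, which was 1.80 times higher in cells with Pax6 (1.37 to 2.35). For Shisa2 the Pax6 ratio was 1.29 (0.918 to 1.79) and for Cntnap2 0.864 (0.413 to 1.64). Nkx6-2, a homeobox gene near the LGE and MGE boundary, was seen in 20 cells, in which Pkdcc was 2.60 times higher (1.64 to 3.95). In MGE the corresponding Pkdcc ratio was 3.06 (1.95 to 4.64) over 30 cells with Nkx6-2. Sfrp2, a secreted Wnt antagonist, went with Cntnap2 at a ratio of 1.91 (1.14 to 3.12) and with Pkdcc at 1.44 (1.09 to 1.89). Gsx2, a homeobox factor of LGE progenitors, went with neither Shisa2 (0.984, 0.674 to 1.40) nor Cntnap2 (1.33, 0.721 to 2.33), and Pkdcc was lower in cells that held it (0.607, 0.402 to 0.886). Sp8, a zinc finger factor of the dorsal LGE, was seen in 50 cells, and neither Cntnap2 nor Pkdcc had a UMI in them, a count of 0 that limits cells with a UMI at this depth to a share of 6%, not cells expressing either gene. Shisa2 was at 0.543 times in the cells with Sp8 (0.267 to 0.989).

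Of the remaining genes, Meis2, a homeobox gene of the striatal lineage, was in 575 of the 632 cells, where Shisa2 was 2.35 times (1.26 to 4.96) and Pkdcc 3.27 times higher (1.70 to 7.22). The Meis2 interval for Cntnap2 ran from 0.735 to 7.36. Mki67, a proliferation marker, gave 1.57 for Pkdcc (1.23 to 2.01), with intervals for Shisa2 and Cntnap2 that included 1. For Olig2, a progenitor factor shared with the oligodendrocyte lineage, the intervals of all 3 members included 1. Gsx1, Nkx2-1, Dbx1 and Emx1 were in 0 of the 632 thinned cells.

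The LGE high-Dcx cells, split by a set of marker genes of which the ones shown were chosen after their values were seen, separated Shisa2 from Cntnap2. Cells with Ebf1, a factor of direct-pathway striatal neurons, had 84.6 CPM of Cntnap2 against 12.3 CPM, a ratio of 6.86 (5.00 to 9.52), and 9.84 CPM of Shisa2 against 42.8 CPM (0.230, 0.126 to 0.389). Mapt, a microtubule protein of maturing axons, gave 3.21 for Cntnap2 (2.33 to 4.46) and 0.245 for Shisa2 (0.163 to 0.358). Cells with Mki67 showed the reverse, at 2.75 times for Shisa2 (2.07 to 3.62) and 0.120 times for Cntnap2 (0.0436 to 0.267). Sp8 also went with Shisa2, at 2.31 times (1.69 to 3.12), and against Cntnap2, at 0.158 times (0.0506 to 0.375). Shisa2 was thus higher in LGE cells with Mki67 or Sp8, and Cntnap2 in those with Ebf1 or Mapt. Zfp503, which the study also links to striatal neurons, gave 1.29 for Cntnap2 (0.953 to 1.73) and 0.607 for Shisa2 (0.443 to 0.822). More Shisa2 UMIs still lay in cells without Sp8 (154 against 62) and without Mki67 (123 against 93). By Meis2, in 1850 of the 2075 cells, the Shisa2 ratio was 26.1 (4.64 to 1038), with 1 UMI in cells without it. The Cntnap2 ratio by Meis2 was 1.50 (0.872 to 2.81). By Hes5 the Shisa2 ratio was 1.05 (0.515 to 1.92).

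**Figure D5:**
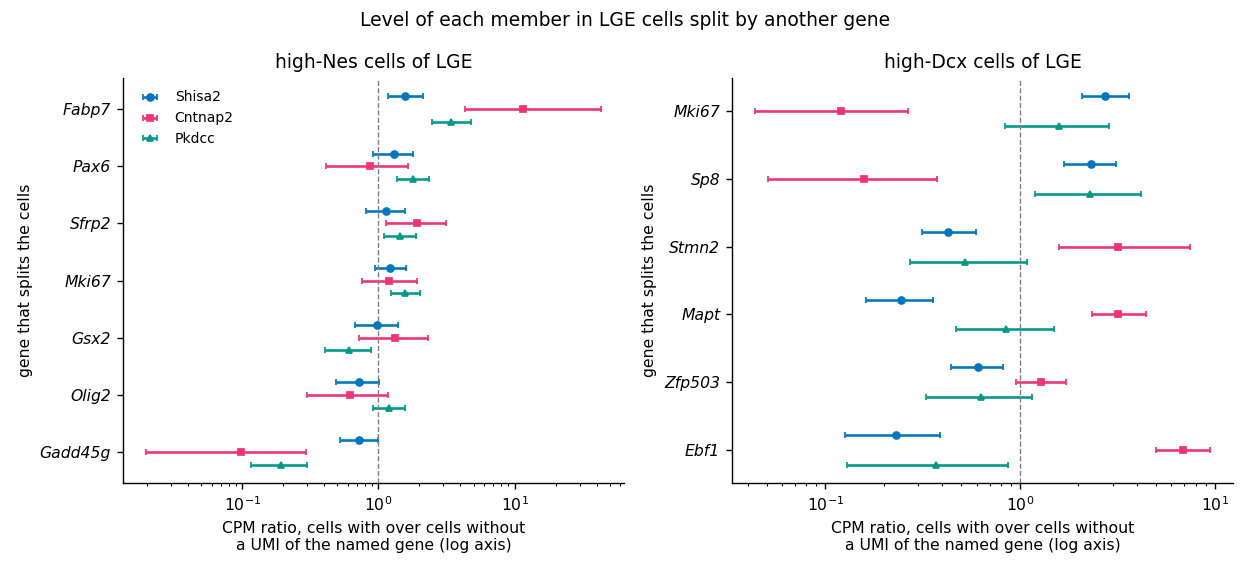
Ratio of each member's level, on a log axis, in LGE cells with a UMI of the gene named on the vertical axis to its level in cells without, for high-Nes cells (left) and high-Dcx cells (right), all thinned to 3000 UMIs, with exact 95% intervals and a dashed line at 1. In high-Nes cells Cntnap2 and Pkdcc lie above 1 for Fabp7 and below 1 for Gadd45g, and in high-Dcx cells Shisa2 and Cntnap2 lie on opposite sides of 1 for Mki67, Sp8, Stmn2, Mapt and Ebf1.

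The families of the 3 genes were described from lists chosen with earlier results known. Of 11 Shisa family genes 5 were tested, of which 0 were called higher in high-Nes and 3 higher in high-Dcx cells (Shisa5, Shisa7 and Shisal1), with a median log2 fold change of -1.45 against -0.02 over all genes. The shares called over all genes tested were 22.2% and 21.6%. Shisa4 was at 77.5 CPM in LGE high-Nes cells, 71.9 in MGE, 54.5 in CTX and 115 in CGE, and so did not share the regional order of Shisa2. Shisa5 was at 9.14 CPM and Shisa9 at 1.65 CPM in LGE high-Nes cells.

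Shisa2 acts on Frizzled and FGF receptors. Of 16 Frizzled, FGF receptor and co-receptor genes 13 were tested, of which 9 were called higher in high-Nes cells, 1 (Fzd3) higher in high-Dcx cells and 3 (Fzd1, Lrp5 and Lrp6) neither, beside 22.2% and 21.6% of all genes tested and with a median of 2.59. The most abundant in LGE high-Nes cells was Fzd2, at 232 CPM against 268 in CTX, 169 in MGE and 163 in CGE. Fzd8 was at 136 CPM in LGE, 84.2 in CTX, 72.9 in CGE and 46.6 in MGE, with a class difference of 4.09 on the log2 scale (SE 0.218, edgeR adjusted p = 0.00146). Fgfr2 stood at 86.3 CPM in LGE against 81.6 in CGE, and Fgfr1 at 70.0 CPM against 77.3. Of the 7 at 20 CPM or more in LGE high-Nes cells, 0 were at least 2-fold higher there than in both MGE and CGE.

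Most of the tested contactins and contactin-associated proteins, the member Cntnap2 among them, were called higher in high-Dcx cells. Of 13 genes 7 were tested, of which 5 were called higher in high-Dcx cells (Cntn2, Cntn5, Cntnap2, Cntnap4 and Cntnap5c) and 1 (Cntn3) in high-Nes cells, with a median of -2.80. Over all genes tested, 21.6% were called higher in high-Dcx and 22.2% in high-Nes cells. Cntn5, a neuronal adhesion protein, was at 6.58 CPM in LGE high-Nes cells and 36.2 CPM in LGE high-Dcx cells. Cntn4 and Cntn6 were at 1.46 and 1.28 CPM in LGE high-Nes cells. Of the 5 genes whose proteins join Cntnap2 along the axon 3 were tested, and Cntn2 alone was called, in favor of high-Dcx cells (log2 fold change -6.45, SE 0.331, edgeR adjusted p = 0.00146). In LGE high-Nes cells, where Cntnap2 was at 50.8 CPM, Cntn2 was at 1.10 CPM on 6 UMIs and the potassium channel gene Kcna1 at 0.366 CPM on 2 UMIs. The scaffold gene Epb41l3 was at 19.4 CPM and the channel subunit Kcnab2 at 3.11 CPM in those cells, and neither was called between the classes.

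Of 13 secretory pathway kinase genes 9 were tested, of which 2 (Pkdcc and Dipk1c) were called higher in high-Nes cells, 2 (Dipk1b and Fam20c) higher in high-Dcx cells and 5 neither, with a median of -0.31. These counts stood close to the 22.2% and 21.6% called over all genes tested. Pkdcc had the highest level of them in LGE high-Nes cells, followed by Fjx1 at 63.1 CPM, Dipk1b at 51.7 CPM and Dipk1a at 24.1 CPM. Fjx1, which encodes a Golgi kinase relative of Drosophila four-jointed, was lower in LGE than in CTX (114 CPM), MGE (80.0 CPM) and CGE (121 CPM).

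The genes most like each member were ranked by Pearson's r of log2(CPM + 1) over the 8 sums of 4 libraries and 2 classes, among 8414 genes, as a description. The sums share libraries, and with 8 points many genes reach a high r. For Pkdcc these were Cmss1 (r = 0.997), Tyro3, Nfatc3, Add3 and Ptges3 (r = 0.989). For Cntnap2 they included Efnb2 (r = 0.906), Mpped1, Yrdc and Usb1 (r = 0.876). Efnb2, an ephrin ligand, was at 90.1 CPM in LGE and 77.2 in CTX against 14.5 in MGE and 18.7 in CGE high-Nes cells. For Shisa2 they were Adrm1 (r = 0.937), Wwp1, Mrps15, Ppp2r2a and Sdhb (r = 0.896), whose levels spanned a far narrower range than that of Shisa2, as with Adrm1 at 108.5 to 154.7 CPM. Between the members r was 0.559 for Shisa2 and Cntnap2, 0.454 for Shisa2 and Pkdcc and -0.334 for Cntnap2 and Pkdcc.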

How the data were processed

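Droplet 3′ libraries of 4 E12.5 regions were aligned to mm10 and counted by the authors with Cell Ranger (3.0.0 per the processing notes, 3.0.2 per the file headers), and the deposited values are raw UMI counts per gene and barcode. The annotation release is not given in the sources used here. Cells with more than 1500 and fewer than 4500 genes, under 5% mitochondrial and under 1% Hbb UMIs were kept. Doublets were removed by simulation (30 neighbors, a rate set by the number of barcodes), taking 122 to 275 barcodes per library. CPM are UMIs of a gene over all UMIs of a class, times 1e6. The labels describe a live-cell sort, whereas the study's methods describe sorting for reporter mice and counting for wild-type cells.

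Intervals are exact Poisson, conditional binomial or Clopper-Pearson at 95%. The class test used edgeR 4.0.16 (TMM, filterByExpr, quasi-likelihood, library block) with adjusted p below 0.05, checked on simulated counts, and DESeq2 1.42.0 was an alternative. A count of 0 was read against a floor of 3 counts. Likeness used a pseudocount of 1 CPM and genes at 20 CPM or more. Named genes were the members, the 4 most abundant of each list in LGE high-Nes cells, the 5 most alike, and a set list of companion genes held by at least 20 cells, of which some are not reported here; genes called in a list, marker genes in high-Dcx cells and Neurod6 and Eomes were named after their values were seen. Members and lists were chosen with earlier results of these data known. Python 3.11.15, R 4.3.3 and GENCODE M21 were used.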

Additional observations from a re-analysis of the deposited data

Results flagged for a closer look

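Cntnap2 moved in opposite directions between classes in different regions: its level in high-Nes only over high-Dcx only cells was 1.51 in LGE, against 0.168 in CTX, 0.450 in MGE and 0.144 in CGE. Each interval of counting error excluded 1. The difference between regions was not tested, since each region is 1 library. Cntnap2 was picked for its level in LGE high-Nes cells, which favors a high LGE ratio by the choice alone.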

How the results depend on the processing

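Every comparison rests on 1 library per region, and the labels give no replicate numbers to pair; the library served as the block of the class test. Without the library block the edgeR test called 2384 genes higher in high-Nes and 2419 in high-Dcx cells, against 2914 and 2831, and Cntnap2 was at -2.34 (adjusted p = 0.0548). With each library left out in turn the counts ran from 1214 to 3131 and from 1226 to 3125, lowest without CGE (without MGE 1476 and 1490). The log2 fold change then ran from 1.11 to 2.00 for Shisa2, past the threshold without CGE alone, and from -2.73 to -1.79 for Cntnap2, lost without CGE alone. Shisa2 also passed with DESeq2 (1.39), with no filter (1.52), with LGE added (1.70), at a gate of 2.0 (1.80) and after thinning (1.51), and missed it without the block (1.76, adjusted p = 0.383). Cntnap2 was also lost with LGE added (-1.37, adjusted p = 0.0991). Pkdcc was called under every alternative.

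At a gate of 1.0 the high-Nes ratios of LGE became 1.01 for Shisa2 over CTX, 5.33 and 2.74 for Cntnap2 over CGE and CTX, and 2.02 for Pkdcc over CTX. At a gate of 2.0 they were 5.75 for Cntnap2 over CTX, and 1.70 and 3.24 for Pkdcc over MGE and CTX. Thinning moved Cntnap2 over MGE to 5.88 (3.19 to 11.8) and Shisa2 over CGE from 56.0 to 22.8, still within the wide interval of the former. In high-Dcx cells, the gate of 2.0 gave 29.4 and 0.809 for Shisa2 over MGE and CTX, and 2.30 and 1.27 for Cntnap2 over MGE and CGE. The gate of 1.0 gave 3.95, 1.78 and 0.584 for Cntnap2 over MGE, CGE and CTX, and thinning 7.56 for Shisa2 and 1.28 for Cntnap2 over CGE. All but the Shisa2 ratio over CTX kept their direction.

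Pkdcc in cells with Shisa2 over those without was 2.21 at the cells' own depth, 1.96 at 2000 UMIs, 1.77 with doublets kept, 2.996 in cells past neither gate, and 0.816, below 1, at a gate of 2.0. Cntnap2 in cells with Pkdcc was 5.38 at own depth, 1.70 in cells past neither gate and 1.74 in the Fabp7 subset, where Pkdcc in cells with Cntnap2 was 1.33. Shisa2 in cells with Pkdcc was 1.07 at a gate of 2.0 and 2.44 in cells past neither gate. In the latter, Cntnap2 in cells with Shisa2 was 0.571, and Shisa2 in cells with Cntnap2 0.724, below 1; the last was 1.06 at 2000 UMIs. The cells past neither gate and the Fabp7 subset were added after the data were seen, and the cause of these changes was not tested. Of the 5 genes most like Shisa2, Cntnap2 and Pkdcc, 4, 3 and 3 remained with a pseudocount of 10 CPM and 4, 3 and 2 among genes at 50 CPM or more. Counts limit CGE most, where Shisa2 had 4 and Cntnap2 7 UMIs in high-Nes cells.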

Other observations

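Glutamatergic markers picked out further cells with Cntnap2 and Shisa2, in splits chosen after the values were seen. Of the thinned LGE high-Dcx cells, 26 had a UMI of Neurod6, a factor of cortical projection neurons, and held 179 CPM of Cntnap2 against 28.1 CPM in the others (ratio 6.38, 3.41 to 10.99). In CGE, 60 high-Dcx cells with Neurod6 held 94.4 CPM of Cntnap2 against 21.5 CPM (4.40, 2.49 to 7.30) and 38.9 CPM of Shisa2 against 3.65 CPM (10.6, 3.87 to 25.5). Of the 31 thinned Shisa2 UMIs in CGE high-Dcx cells, 7 were in those 60 cells and 24 in the others. The level in the others, 3.65 CPM, stood beside 2.79 CPM in thinned MGE high-Dcx cells. The part of the Neurod6 cells in the CGE level was not tested.

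In CTX high-Dcx cells, Eomes, a factor of cortical intermediate progenitors, split the same pair of genes as Mki67 and Ebf1 did in LGE. The 310 cells with Eomes held 65.6 CPM of Shisa2 against 17.5 CPM (3.75, 2.32 to 6.24) and 34.4 CPM of Cntnap2 against 89.4 CPM (0.385, 0.253 to 0.570). The 240 CTX cells with Mapt held 121 CPM of Cntnap2 against 44.5 CPM (2.72, 1.97 to 3.76) and 9.72 CPM of Shisa2 against 48.1 CPM (0.202, 0.0786 to 0.436).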
